A study of Mus musculus with 22 samples.

Results

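The Hox cluster genes encode homeodomain transcription factors that give cells of the embryo their position along the body axis. Mice carry 4 clusters, A to D, on different chromosomes, and the genes within a cluster are numbered by paralog group, so that low numbers act towards the head and high numbers towards the tail. In the embryo they are switched on in the order of their numbers, retinoic acid and Cdx factors start this activation, and in embryonic stem cells most of them are held down by Polycomb complexes. The genes described here were taken from those in the deposited table whose symbol is Hox, a cluster letter from a to d and a number. There were 20 such genes among 18487 in the table, and 19 are described, 4 of cluster A, 4 of cluster B, 6 of cluster C and 5 of cluster D. Other Hox genes were not analysed here. In mm10 (GENCODE M21) the described cluster A genes span chr6:52169062-52240854 on the minus strand, and on the plus strand those of cluster B span chr11:96194316-96347930, those of cluster C chr15:102921103-103036852 and those of cluster D chr2:74668310-74765142.

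Poly(A) RNA was sequenced from E14 cells, a single line of mouse embryonic stem cells, after treatment with 10 compounds, and a group labelled NC was the reference. Each compound and NC had 2 libraries, 22 in all, and the labels gave neither dose nor time. Bromosporine binds bromodomains, Valproate inhibits histone deacetylases, CPTH2 and Garcinol inhibit histone acetyltransferases, and Chaetocin inhibits histone lysine methyltransferases. UNC0379 inhibits SETD8, MS023 inhibits type I arginine methyltransferases, IOX1 inhibits demethylases of the JmjC family and related enzymes, and DZNep lowers methylation by blocking the breakdown of S-adenosylhomocysteine. Of OICR the labels gave only that name. All groups were the same cell line, and what NC received was not stated in the labels. Nothing said whether the 2 libraries of a group came from separate cultures, so the p-values below measure only the spread between these libraries, which may be technical. Values are read counts per gene that the authors normalized and rounded, called normalized counts below, and the depth of each library is unknown. All libraries had the same median of 409 and totals of 38403767 to 38419709. The summed value of 10 embryonic stem cell markers was 181893 to 289269, and Pou5f1 and Nanog were high in every library. Of 8 mesoderm markers, 4 were in the table and these summed to 137 to 329. The sum of 10 fibroblast markers moved between 105 and 1944. Postn, Lum and Col3a1 were each at 4 or below in some libraries and at 197 or above in others. Such jumps also occurred between libraries of the same group. Aldh1a1, among the retinoic acid pathway genes tested below, jumped likewise, with 2 and 595 in NC and 503 and 2 with Bromosporine. Whether this bears on the Hox genes was not tested.

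The highest levels were at the tail end of cluster C. Levels are given per kilobase of exon. The order of genes describes the normalized values only, since the authors' normalization may have changed levels between genes. On that scale Hoxc12 was highest at 321 ± 106 normalized counts per kb (mean ± SD, n = 22 libraries). Hoxc13 followed at 245 ± 54.5, and the ranges of this pair over the libraries overlapped. Hoxd9 (107 ± 36.7) and Hoxc4 (83.5 ± 19.2) came next and also overlapped, then Hoxd13 (59.0 ± 19.7). The lowest were Hoxd10 (3.30), Hoxa9 (2.2) and Hoxb3 (0.323), and Hoxb3 was listed at 0 in 11 of 22 libraries. Of the 31-base stretches of its longest transcript, 69.5% also occur in other genes, so reads of Hoxb3 may be shared. Using the longest transcript instead of all exons moved the means of 5 of the genes, with Hoxc4 at 101 and Hoxa10 at 12.4 in place of 10.1. The order along a cluster was not the order of levels. The highest described member per kb was Hoxa3 in cluster A, Hoxb9 in cluster B, Hoxc12 in cluster C and Hoxd9 in cluster D. Hoxb9 and Hoxb4 overlapped over the libraries, and in NC alone the mean of Hoxb4 was higher (41.3 per kb, against 31.9).

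**Figure D1:**
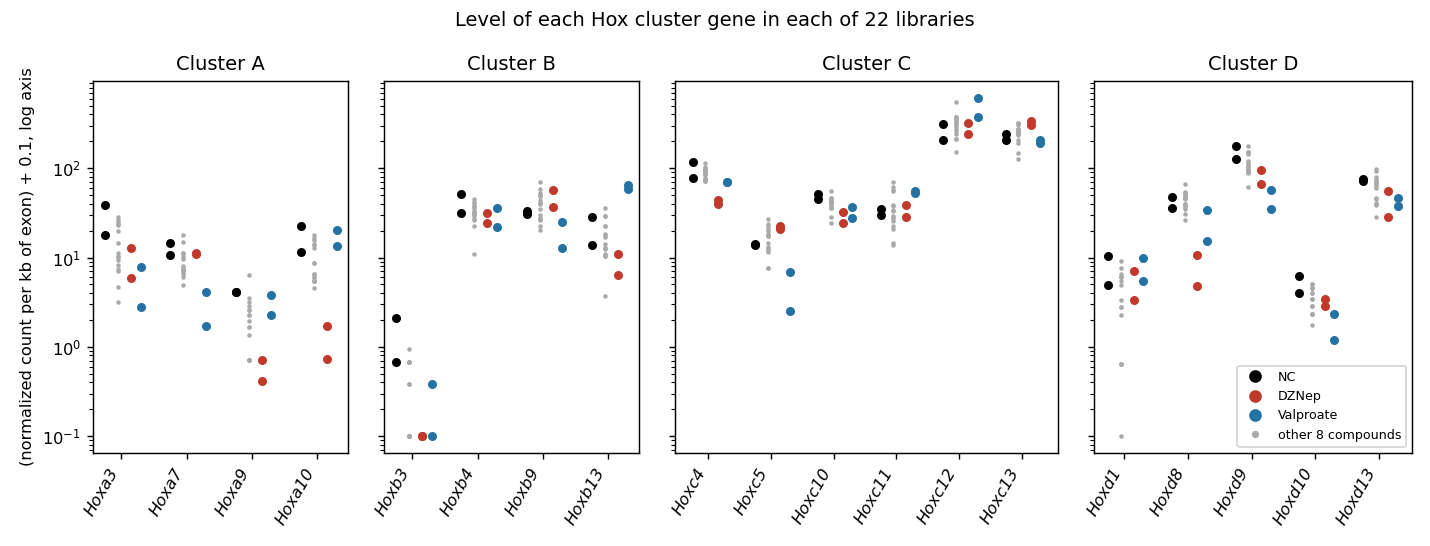
Each point is the level of 1 gene in 1 library, as normalized counts per kb of exon plus 0.1 on a log axis, with the genes of each cluster in the order of their paralog numbers. NC is black, DZNep red, Valproate blue and the other 8 compounds grey. Hoxc12 and Hoxc13 stand highest, Hoxb3 lowest, and the DZNep points of Hoxa10, Hoxa9 and Hoxd8 lie below those of NC.

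A gene was tested when its value was at least 10 in at least 2 libraries, which left 17 of the 19 Hox genes and 17275 genes in all. Hoxb3 and Hoxd10 did not pass. A change is the difference of the means of log2(value + 1), which understates the fold of low genes, and a gene is said to rise or fall where limma's test gave an adjusted p under 0.05 and the change was over 1 on that scale. All 10 comparisons share the same 2 NC libraries. With DZNep 4 Hox genes fell and 0 rose, with Valproate 3 fell and 0 rose, and with the other 8 compounds 0 changed. The 4 genes that fell with DZNep (Hoxa9, Hoxa10, Hoxc4 and Hoxd8) and the 3 that fell with Valproate (Hoxa7, Hoxc5 and Hoxd9) had no gene in common. Both counts depend on how the fit was made. In fits of only the 4 libraries compared, 0 Hox genes passed with DZNep and 0 with Valproate. Of all tested genes 0.562% and 0.434% passed there, against 11.4% and 5.28% in the fit of all 22 libraries. None of the direct comparisons below gave a Hox call in such a fit. Those fits called 0% of all tested genes for DZNep against Valproate and 2.77% for DZNep against Bromosporine. They called 0.949% for Bromosporine against Valproate and 1.82% for DZNep against MS023. With p-values adjusted over all 10 comparisons at once, 3 Hox genes fell with DZNep (Hoxa10, Hoxc4 and Hoxd8) and 2 with Valproate. Of all tested genes 8.18% and 3.96% were then called in either direction. Leaving out NC replicate 1 also lowered the number called over all tested genes with both compounds. Leaving out Valproate replicate 1 did so with Valproate. Hox calls lost in those fits, given below, stand beside that loss.

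DZNep was the compound with which the most Hox genes fell. Of all tested genes 6.14% fell with DZNep and 5.27% rose, against 4 and 0 of the 17 Hox genes. The median change of the Hox genes was -0.79, against -0.04 for all tested genes. In 10 of the 17 both DZNep libraries lay below both NC libraries, and so did 32.4% of all tested genes.

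Hoxd8 (chr2:74704615-74707933), a gene of the middle of cluster D, had the smallest adjusted p. Hoxd8 values were 130 and 97 in NC, 184 and 126 with Bromosporine, 149 and 72 with Chaetocin, 145 and 96 with CPTH2, 29 and 13 with DZNep, 135 and 101 with Garcinol, 140 and 127 with IOX1, 123 and 141 with MS023, 108 and 108 with OICR, 103 and 83 with UNC0379 and 93 and 42 with Valproate. The DZNep pair lay below the libraries of every other group, while Bromosporine had the highest single value. With DZNep the change was -2.47 ± 0.44 (SE, adjusted p = 0.00145). Without NC replicate 1 it was -2.26 (adjusted p = 0.0209), and Hoxd8 was the only 1 of the 4 genes to keep its call in that fit.

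Hoxc4 (chr15:103018934-103036852), the lowest-numbered member of cluster C in the table, fell with DZNep. Its values were below the library median of 409 in all 22 libraries. Hoxc4 values were 301 and 200 in NC, 261 and 216 with Bromosporine, 292 and 227 with Chaetocin, 250 and 233 with CPTH2, 102 and 113 with DZNep, 245 and 222 with Garcinol, 264 and 192 with IOX1, 184 and 184 with MS023, 248 and 191 with OICR, 232 and 199 with UNC0379 and 180 and 182 with Valproate. The DZNep values of 102 and 113 were the lowest of all 22 libraries. The change was -1.19 ± 0.22 (adjusted p = 0.00188). NC replicate 1 was the highest library of Hoxc4, and without it the change was -0.89 (adjusted p = 0.0339), under the required size.

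Hoxa10 (chr6:52231197-52240854), a posterior gene known for its part in patterning the uterus and hindlimb, had the largest change of any Hox gene. Hoxa10 values were 71 and 36 in NC, 27 and 19 with Bromosporine, 18 and 40 with Chaetocin, 20 and 43 with CPTH2, 2 and 5 with DZNep, 17 and 49 with Garcinol, 17 and 44 with IOX1, 17 and 56 with MS023, 20 and 52 with OICR, 14 and 27 with UNC0379 and 42 and 64 with Valproate. The DZNep values of 2 and 5 stood below all others, of which the lowest was 14. The change was -3.60 ± 0.77 (adjusted p = 0.0041), and without NC replicate 1 it was -3.12 (adjusted p = 0.0524).

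Hoxa9 (chr6:52223100-52231089), its neighbour and a factor best known in blood progenitors, was near the floor of the table. Hoxa9 values were 13 and 13 in NC, 5 and 2 with Bromosporine, 7 and 8 with Chaetocin, 4 and 10 with CPTH2, 2 and 1 with DZNep, 2 and 11 with Garcinol, 9 and 20 with IOX1, 2 and 6 with MS023, 5 and 7 with OICR, 2 and 8 with UNC0379 and 7 and 12 with Valproate. The DZNep values were at or below those of all other groups, but with values this small the change depends on the constant added before taking logs. It was -2.51 ± 0.80 (adjusted p = 0.0366) with 1 added and -1.0 with 10 added, where the adjusted p was 0.0478. Leaving out any 1 of the 4 libraries ended the call, with adjusted p from 0.0697 to 0.146.

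Among the 13 tested genes that were not called with DZNep, Hoxc13 came nearest to a rise, with a difference of 0.53 ± 0.18 (adjusted p = 0.051), and Hoxc10 had a difference of -0.79 ± 0.28 (adjusted p = 0.0535). Hoxc11 and Hoxc12 differed from NC by 0.03 and 0.13. Hoxc5 was higher in both DZNep libraries (60 and 65, against 40 and 41 in NC) without passing the test. Cluster C therefore held 1 gene that fell, while its other genes lay above, below or near NC. The summed value of cluster C was 1384 and 1359 with DZNep, against 1412 and 1119 in NC. Over the 4 genes of cluster A the sum was 46 and 67 with DZNep, against 220 and 121 in NC, and in cluster D it was 254 and 373, against 724 and 563. The sums of cluster B were 240 and 182 with DZNep and 279 and 198 in NC, so their libraries overlapped.

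**Figure D2:**
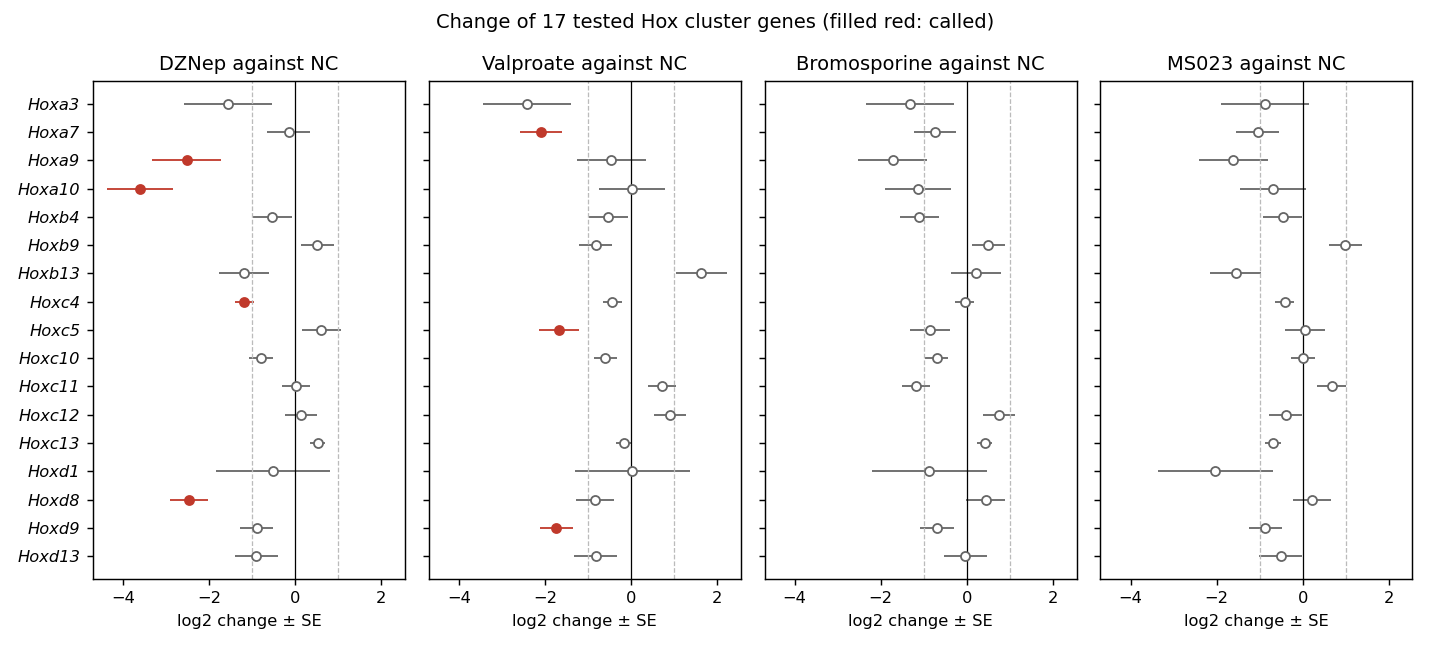
Points are the change of each of 17 tested Hox genes against NC on the log2(value + 1) scale, with bars of 1 SE, for DZNep, Valproate, Bromosporine and MS023. Filled red points mark genes that passed the test, and dashed lines stand at changes of -1 and 1. The red points are 4 with DZNep and 3 with Valproate, all on the left, and there are none with Bromosporine or MS023.

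With Valproate other members fell. Of all tested genes 2.55% fell and 2.73% rose with Valproate, against 3 and 0 of the 17 Hox genes. The median change of the Hox genes was -0.52, against -0.02 for all tested genes. In 11 of the 17 both Valproate libraries lay below both NC libraries, as in 27.6% of all tested genes. All 3 calls were lost without NC replicate 1 and also without Valproate replicate 1, which was the lower Valproate library for each of them.

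Hoxd9 (chr2:74697727-74700208), the neighbour of Hoxd8 and the most abundant member of cluster D, fell with Valproate. Hoxd9 values were 374 and 271 in NC, 204 and 190 with Bromosporine, 199 and 254 with Chaetocin, 204 and 305 with CPTH2, 142 and 206 with DZNep, 194 and 325 with Garcinol, 218 and 321 with IOX1, 131 and 231 with MS023, 223 and 379 with OICR, 192 and 247 with UNC0379 and 74 and 122 with Valproate. The value of 122 in Valproate replicate 2 was lower than that of any library outside the group. The change was -1.73 ± 0.39 (adjusted p = 0.0117). It was -1.50 (adjusted p = 0.103) without NC replicate 1 and -1.38 (adjusted p = 0.116) without Valproate replicate 1.

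Hoxa7 (chr6:52214491-52221854), a trunk gene of cluster A, was a low gene in all groups. Hoxa7 values were 36 and 26 in NC, 18 and 18 with Bromosporine, 19 and 28 with Chaetocin, 15 and 25 with CPTH2, 27 and 28 with DZNep, 24 and 28 with Garcinol, 16 and 44 with IOX1, 12 and 17 with MS023, 27 and 37 with OICR, 18 and 20 with UNC0379 and 4 and 10 with Valproate. The Valproate values of 4 and 10 were lower than all others. The change was -2.09 ± 0.49 (adjusted p = 0.0160), and it was -1.86 (adjusted p = 0.117) without NC replicate 1 and -1.52 (adjusted p = 0.152) without Valproate replicate 1. Of the 31-base stretches of Hoxa7 transcripts, 29.4% also occur in other genes, among them Hoxa6 and the antisense RNA Hoxaas3, so its reads may be shared.

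Hoxc5 (chr15:102967443-103017429), which acts in the neck and upper trunk, fell with Valproate too. Hoxc5 values were 40 and 41 in NC, 22 and 22 with Bromosporine, 42 and 69 with Chaetocin, 36 and 57 with CPTH2, 60 and 65 with DZNep, 33 and 53 with Garcinol, 50 and 79 with IOX1, 35 and 51 with MS023, 52 and 60 with OICR, 38 and 66 with UNC0379 and 7 and 20 with Valproate. Valproate and Bromosporine were the groups in which both libraries lay below NC. The change with Valproate was -1.68 ± 0.46 (adjusted p = 0.0337). It was -1.70 (adjusted p = 0.132) without NC replicate 1, -1.66 (adjusted p = 0.134) without NC replicate 2 and -0.98 (adjusted p = 0.294) without Valproate replicate 1.

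In 3 of the 17 Hox genes, Hoxb13, Hoxc11 and Hoxc12, both Valproate libraries lay above both NC libraries, as in 23.0% of all tested genes. None of these passed the test against NC. Among other posterior genes, Hoxc10, Hoxc13 and Hoxd13 had both Valproate libraries below both NC libraries. Hoxb13, the most posterior gene of cluster B and known from the prostate and tail, had values of 144 and 130 with Valproate, against 62 and 30 in NC. All libraries outside Valproate were at 79 or below. The difference was 1.64 ± 0.58 (adjusted p = 0.096), and against the mean of the other 10 groups it passed (2.03, adjusted p = 0.00485). Hoxc12, a gene of the tail end of cluster C, differed by 0.91 ± 0.38 (adjusted p = 0.153). In cluster D the Valproate sums were 275 and 299, against 724 and 563 in NC, and in cluster C they were 1453 and 1270, against 1412 and 1119.

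DZNep and Valproate were compared directly as well, which does not use NC. Between them 3 Hox genes were higher with DZNep and 3 lower, as were 4.85% and 5.92% of all tested genes. Hoxc5 (2.29 ± 0.46, adjusted p = 0.00324), Hoxa7 (1.94 ± 0.49, adjusted p = 0.0128) and Hoxb9 (1.34 ± 0.38, adjusted p = 0.0234) were higher with DZNep. Hoxa10 (-3.64 ± 0.77, adjusted p = 0.0042), Hoxb13 (-2.83 ± 0.58, adjusted p = 0.00372) and Hoxd8 (-1.63 ± 0.44, adjusted p = 0.0177) were lower. For Hoxa10, Valproate (42 and 64) and NC (71 and 36) overlapped while DZNep had 2 and 5. Of the 4 genes that fell with DZNep against NC, Hoxa10 and Hoxd8 differed between the compounds. Of the 3 that fell with Valproate, Hoxa7 and Hoxc5 differed. Hoxa9, Hoxc4 and Hoxd9 were not called here, with differences of -2.06 ± 0.80 (adjusted p = 0.0828), -0.75 ± 0.22 (adjusted p = 0.0271) and 0.84 ± 0.39 (adjusted p = 0.141). Without Valproate replicate 1, 3 of the 6 remained, namely Hoxa10, Hoxb13 and Hoxc5. Without DZNep replicate 2 the calls of Hoxa7 (adjusted p = 0.0532) and Hoxd8 (adjusted p = 0.159) were lost, and without DZNep replicate 1 that of Hoxb9 (adjusted p = 0.141).

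**Figure D3:**
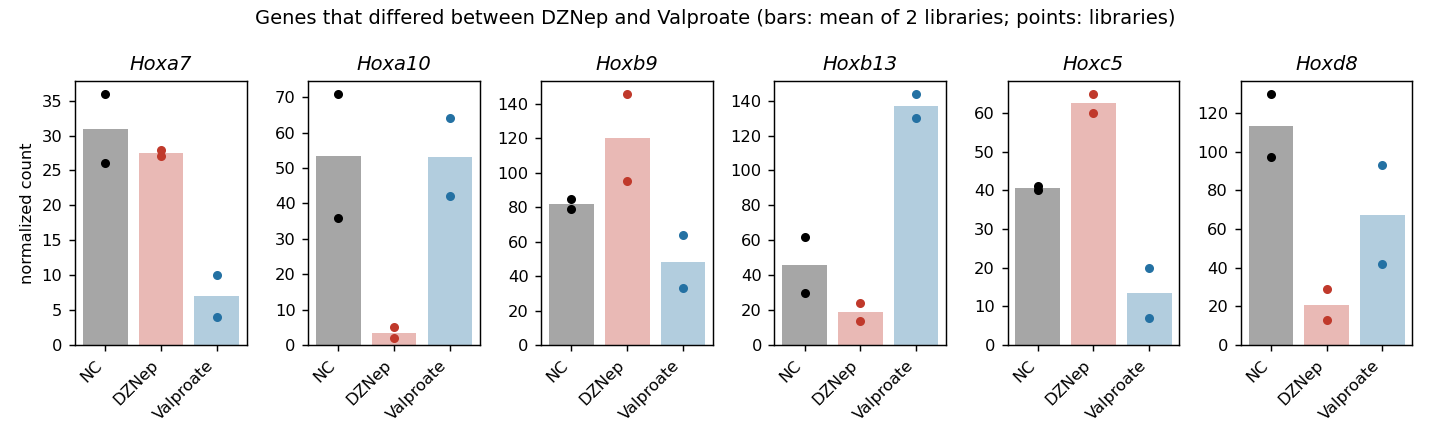
Bars are the mean normalized count of 2 libraries and points the libraries themselves, for NC, DZNep and Valproate, in the 6 Hox genes that differed between DZNep and Valproate. Hoxa10 and Hoxd8 are lowest with DZNep, Hoxa7 and Hoxc5 lowest with Valproate, and Hoxb13 highest with Valproate.

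Calls differed among genes of cluster D, and 3 of their promoters are printed here for that reason. Hoxd8 fell with DZNep, Hoxd9 with Valproate, and Hoxd13 passed with neither. All 3 had both libraries below both NC libraries with each compound, with differences of -2.47, -0.89 and -0.90 for DZNep and -0.83, -1.73 and -0.82 for Valproate, in the same order. RefSeq promoters (GRCm38.p6, 250 bases before to 50 after a start site) were found for 11 of the 19 genes, 12 promoters in all. In the following sequences, written 5′ to 3′ on the plus strand, which is that of the genes, capitals mark CpG dinucleotides.
Hoxd8, chr2:74704365-74704664: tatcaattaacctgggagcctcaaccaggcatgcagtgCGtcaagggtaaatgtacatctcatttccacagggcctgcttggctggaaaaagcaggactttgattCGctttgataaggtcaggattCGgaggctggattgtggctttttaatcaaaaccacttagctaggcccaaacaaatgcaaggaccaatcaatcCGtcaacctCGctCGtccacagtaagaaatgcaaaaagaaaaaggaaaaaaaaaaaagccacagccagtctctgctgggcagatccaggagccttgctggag
Hoxd9, chr2:74697513-74697812: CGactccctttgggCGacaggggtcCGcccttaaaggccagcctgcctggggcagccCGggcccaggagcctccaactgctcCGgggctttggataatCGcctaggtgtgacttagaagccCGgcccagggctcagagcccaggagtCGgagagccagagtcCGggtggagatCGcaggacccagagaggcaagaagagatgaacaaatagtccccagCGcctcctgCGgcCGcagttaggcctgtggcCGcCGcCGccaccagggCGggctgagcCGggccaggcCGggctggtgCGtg
Hoxd13, chr2:74667975-74668274: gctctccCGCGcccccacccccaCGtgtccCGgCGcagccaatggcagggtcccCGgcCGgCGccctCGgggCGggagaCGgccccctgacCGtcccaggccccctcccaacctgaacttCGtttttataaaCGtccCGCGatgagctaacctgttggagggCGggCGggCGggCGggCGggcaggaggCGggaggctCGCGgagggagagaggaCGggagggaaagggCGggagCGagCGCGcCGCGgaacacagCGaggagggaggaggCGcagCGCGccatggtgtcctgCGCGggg
The Hoxd8 promoter held 6 CpGs, that of Hoxd9 20 and that of Hoxd13 37. Over the 12 promoters the median was 17 CpGs (range 4 to 37), against 18 in 15523 promoters of genes in the table. Hoxa9 had 4, Hoxa7 and Hoxc4 9 each, and the Hoxa10 promoters 12 and 21. Of genes that were not called with either compound, Hoxb4 had 14, Hoxa3 20, Hoxd1 29, and the untested Hoxd10 had 22. The letters AGGTCA, a half-site of retinoid receptors searched on both strands, occurred in 4 of the 12 (Hoxb4, Hoxc4, Hoxd8 and Hoxd10) and in 12.9% of the 15523 promoters. The letters TTTATG, found in sites of CDX factors and searched in the same way, occurred in the Hoxa7 promoter and in 7.61% of all. No Hox promoter held both motifs, and a match describes the sequence only.

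Bromosporine gave no call among the Hox genes. Over all tested genes 3.34% were called and 19.0% had an unadjusted p under 0.05 in limma, against 0 and 4 of the 17 Hox genes. In 9 of the 17 both libraries were below both NC libraries, against 23.0% of all tested genes. Hoxc11, a posterior gene of cluster C, came nearest, with 28 and 29 against 61 and 71 in NC. Its difference was -1.18 ± 0.33 (adjusted p = 0.0537). The other 3 with an unadjusted p under 0.05 were Hoxb4 (-1.10), Hoxc10 (-0.70) and Hoxc13 (0.41). Hoxa9 had the largest difference among genes whose libraries did not overlap NC (-1.72 ± 0.80, adjusted p = 0.267).

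Against Bromosporine directly, DZNep had 2 Hox genes higher and 3 lower, as were 8.26% and 6.5% of all tested genes. Hoxc5 (1.46 ± 0.46, adjusted p = 0.0302) and Hoxc11 (1.21 ± 0.33, adjusted p = 0.0142) were higher with DZNep. Hoxd8 (-2.90 ± 0.44, adjusted p = 0.00036), Hoxa10 (-2.48 ± 0.77, adjusted p = 0.0272) and Hoxc4 (-1.14 ± 0.22, adjusted p = 0.00199) were lower. Without DZNep replicate 1, Bromosporine replicate 1 or Bromosporine replicate 2, the calls that remained were 2, Hoxc4 and Hoxd8, and without DZNep replicate 2 the call of Hoxc5 was lost (adjusted p = 0.105). Between Bromosporine and Valproate, Hoxb9 was higher with Bromosporine (1.32 ± 0.38, adjusted p = 0.0346) and Hoxc11 lower (-1.91 ± 0.33, adjusted p = 0.00206), where 2.81% and 5.82% of all tested genes were called. The Hoxc11 values were 28 and 29 with Bromosporine and 107 and 112 with Valproate. The Hoxb9 call was lost without Bromosporine replicate 1 (adjusted p = 0.0873), Bromosporine replicate 2 (0.173) or Valproate replicate 1 (0.252). Hoxd8 gained a call without Valproate replicate 1 (adjusted p = 0.0386) and Hoxa7 without Valproate replicate 2 (adjusted p = 0.0487).

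MS023 had the lowest summed value of cluster C. No Hox gene passed the test against NC, where 0.973% of all tested genes were called and 15.0% had an unadjusted p under 0.05, against 4 of the 17 Hox genes. Both libraries were below both NC libraries in 7 Hox genes and in 23.6% of all tested genes. Hoxc13, the last gene of cluster C and needed for hair and nails, had the smallest p. Hoxc13 values were 591 and 509 in NC, 785 and 681 with Bromosporine, 628 and 474 with Chaetocin, 643 and 590 with CPTH2, 750 and 832 with DZNep, 605 and 594 with Garcinol, 678 and 514 with IOX1, 315 and 364 with MS023, 655 and 788 with OICR, 741 and 573 with UNC0379 and 475 and 504 with Valproate. MS023 had the lowest pair, 315 and 364, and DZNep replicate 2 the highest value. The difference between MS023 and NC was -0.69 ± 0.18 (adjusted p = 0.0691). Hoxb9 was higher with MS023 (0.99 ± 0.38, adjusted p = 0.232), and Hoxb13 (-1.56 ± 0.58, adjusted p = 0.212) and Hoxd9 (-0.87 ± 0.39, adjusted p = 0.311) were lower, none of them called. The sum of cluster C was 1029 and 917 with MS023, below the 1119 of the lowest library of any other group. Hoxc13 and Hoxc12 together made up most of that sum. Of the other members, Hoxc4 was below NC in both MS023 libraries and Hoxc11 above (141 and 79, against 61 and 71). Hoxc5, Hoxc10 and Hoxc12 overlapped NC. Directly between the compounds, Hoxc13 was higher with DZNep than with MS023 (1.22 ± 0.18, adjusted p = 0.000391), and Hoxa10 (-2.92 ± 0.77, adjusted p = 0.0147) and Hoxd8 (-2.70 ± 0.44, adjusted p = 0.000832) were lower. Of all tested genes 5.56% were higher and 5.39% lower in that comparison. The Hoxa10 call was lost without DZNep replicate 1 (adjusted p = 0.0855) or MS023 replicate 2 (adjusted p = 0.148), and without DZNep replicate 1 Hoxc10 gained a call as lower.

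The other 6 compounds made few calls anywhere. The share of all tested genes called in limma was 0.0174% with Chaetocin, 0.00579% with CPTH2, 0.00579% with Garcinol, 0.116% with IOX1, 0.388% with OICR and 0.0% with UNC0379, and 0 of the Hox genes were among them. An unadjusted p under 0.05 was given to 4.72%, 0.944%, 3.62%, 12.4%, 10.7% and 6.08% of all tested genes in the same order. It was given to 0 Hox genes with the first 5 and to 1 with UNC0379, Hoxc11 (0.83 ± 0.33, adjusted p = 0.791), with 112 and 124 against 61 and 71. With UNC0379, 7 Hox genes had both libraries below both NC libraries, and so had 17.6% of all tested genes. Among genes whose libraries did not overlap NC, the largest difference was that of Hoxa9 with CPTH2 (-0.92), Garcinol (-1.22), OICR (-1.01) and UNC0379 (-1.43), of Hoxd13 with Chaetocin (-0.86) and of Hoxc5 with IOX1 (0.62). None of these passed the test.

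Hoxc12 and Hoxd13, each of the pair with the highest mean value in its cluster, did not pass against NC with any compound. Hoxc12, with the highest level per kb, lies next to Hoxc13 in cluster C. Hoxc12 values were 321 and 211 in NC, 565 and 340 with Bromosporine, 370 and 270 with Chaetocin, 337 and 221 with CPTH2, 332 and 246 with DZNep, 370 and 217 with Garcinol, 391 and 325 with IOX1, 248 and 157 with MS023, 379 and 283 with OICR, 389 and 306 with UNC0379 and 631 and 382 with Valproate. Valproate replicate 1 and Bromosporine replicate 1 had the highest values, and MS023 replicate 2 the lowest. Hoxd13, the last gene of cluster D and needed for digits, was spread widely within groups. Hoxd13 values were 190 and 179 in NC, 196 and 166 with Bromosporine, 70 and 147 with Chaetocin, 114 and 184 with CPTH2, 71 and 136 with DZNep, 101 and 231 with Garcinol, 97 and 174 with IOX1, 99 and 169 with MS023, 155 and 243 with OICR, 113 and 178 with UNC0379 and 94 and 115 with Valproate. Replicate 2 exceeded replicate 1 in 9 of the 10 compounds, and Garcinol alone spanned 101 to 231.

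Hoxa3, which acts in the pharyngeal arches, had its highest value in NC replicate 1. Hoxa3 values were 100 and 46 in NC, 26 and 27 with Bromosporine, 21 and 51 with Chaetocin, 29 and 68 with CPTH2, 15 and 33 with DZNep, 24 and 64 with Garcinol, 8 and 59 with IOX1, 18 and 74 with MS023, 12 and 61 with OICR, 19 and 37 with UNC0379 and 7 and 20 with Valproate. The pairs of most compounds reached above the lower NC library, and both Bromosporine, DZNep, UNC0379 and Valproate libraries lay below it. Valproate had the largest difference of its Hox genes here (-2.41 ± 1.02, adjusted p = 0.164). Of the 31-base stretches of Hoxa3, 28.1% also occur in other genes, and its exons overlap Gm28308 on its own strand.

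Hoxb9, a gene of the lower trunk, was highest with MS023. Hoxb9 values were 79 and 85 in NC, 106 and 127 with Bromosporine, 58 and 105 with Chaetocin, 52 and 67 with CPTH2, 146 and 95 with DZNep, 90 and 76 with Garcinol, 70 and 128 with IOX1, 179 and 150 with MS023, 112 and 134 with OICR, 71 and 103 with UNC0379 and 33 and 64 with Valproate. Its Valproate values were the only pair below both NC libraries apart from CPTH2. Hoxb4, known from blood stem cells, had lower values in replicate 2 in 9 of 10 compounds. Hoxb4 values were 131 and 81 in NC, 80 and 28 with Bromosporine, 97 and 83 with Chaetocin, 91 and 67 with CPTH2, 80 and 63 with DZNep, 115 and 75 with Garcinol, 79 and 69 with IOX1, 57 and 97 with MS023, 105 and 85 with OICR, 108 and 78 with UNC0379 and 91 and 56 with Valproate. NC replicate 1 was its highest library and Bromosporine replicate 2 its lowest.

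The members not listed by library were Hoxc10, with 46 to 106 over the 22 libraries, Hoxc11 with 28 to 141, Hoxb13 with 8 to 144, Hoxd1 with 0 to 19, Hoxd10 with 2 to 11 and Hoxb3 with 0 to 7. Hoxc10 had no call, and 7.34% of its stretches are shared with Hoxc5, whose annotated gene body overlaps it. Hoxd1, an anterior gene, had 19 and 9 in NC, and 9 of its 10 compound libraries of replicate number 2 equalled or exceeded the lower of these.

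The libraries of a compound often differed among themselves, and in cluster A they did so by replicate number. The numbers come from the sample titles, which do not say whether a number marks a shared day or batch. The summed value of the 4 cluster A genes was 46 to 76 in the 10 compound libraries with number 1 and 66 to 167 in those with number 2, against 220 and 121 in NC. Number 2 was above number 1 in 9 of the 10 compounds, and Bromosporine (76 and 66) and NC went the other way. By gene, 7 of the 17 tested Hox genes were higher in number 2 in at least 9 of 10 compounds (Hoxa3, Hoxa7, Hoxa10, Hoxc5, Hoxd1, Hoxd9 and Hoxd13), against 25.6% of all tested genes. In the other direction there were 2, Hoxb4 and Hoxc12, against 19.1% of all tested genes.

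The same split showed in the distance to NC. In the libraries with number 1, 10 Hox genes were below NC replicate 1 in at least 9 of 10 compounds, against 20.9% of all tested genes. In those with number 2, 2 were below NC replicate 2 in at least 9 of 10 compounds (Hoxa9 and Hoxc10), against 7.08%. For Hoxa3, number 1 ranged from 7 to 29 over the compounds with NC replicate 1 at 100, and number 2 from 20 to 74 with NC replicate 2 at 46. For Hoxa10, number 1 ranged from 2 to 42 with NC at 71, and number 2 from 5 to 64 with NC at 36. The high NC replicate 1 and the low number 1 libraries of the compounds therefore both enter the differences given above for cluster A. With the mean of the other 10 groups in place of NC, Hoxa10 kept its call with DZNep (-2.9, adjusted p = 0.00159) and Hoxa7 with Valproate (-1.69, adjusted p = 0.0053), while that of Hoxa9 with DZNep was lost (-1.61, adjusted p = 0.0519).

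**Figure D4:**
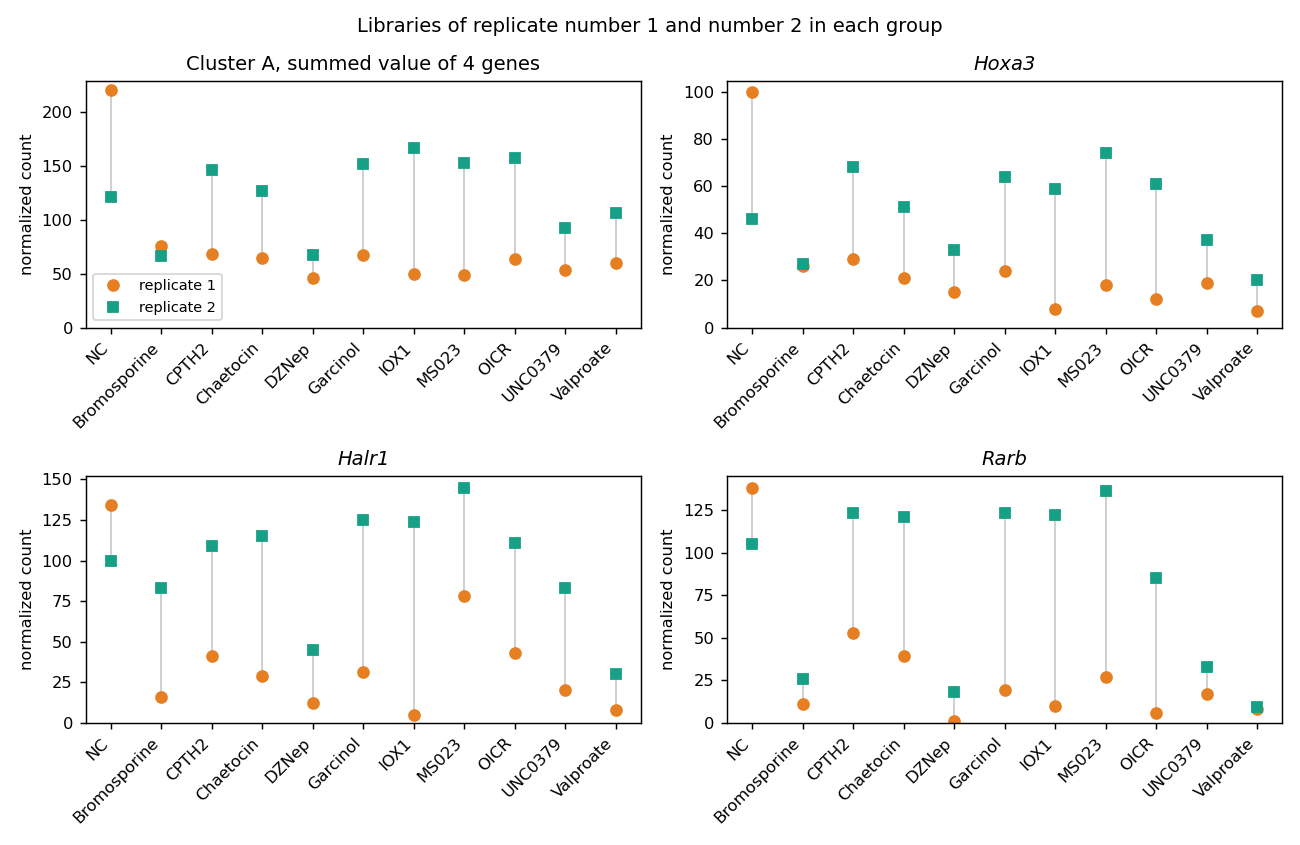
Normalized counts of the 4 summed cluster A genes, of Hoxa3, of the noncoding RNA Halr1 and of Rarb, by group, with replicate number 1 as orange circles and number 2 as green squares joined by a line. Number 2 lies above number 1 in each of the 10 compounds in all 4 panels except for Bromosporine in the cluster A sum, while in NC number 1 lies above number 2.

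Genes that act on the Hox clusters were taken from lists written from general knowledge. Cdx1, a direct activator of trunk Hox genes and itself a retinoic acid target, fell with DZNep and Valproate. Its values were 1773 and 1006 in NC, 37 and 116 with DZNep, and 145 and 167 with Valproate. The changes were -4.33 ± 0.87 (adjusted p = 0.00299) and -3.09 ± 0.87 (adjusted p = 0.038). Cdx1 was also low with Bromosporine, at 133 and 202 (-3.02, adjusted p = 0.0645), and with IOX1, at 118 and 409 (-2.60, adjusted p = 0.24). With OICR it had 246 and 470. It did not pass the test with these compounds, and none of them had a Hox call. In number 1 Cdx1 ranged from 37 to 727 over the compounds, below NC in all 10. In number 2 it ranged from 116 to 1460, below NC in 5, and it exceeded number 1 in all 10. Cdx2 and Cdx4, its relatives, were not called with any compound and did not exceed 24 and 81.

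Of 15 tested genes of the retinoic acid pathway, 0 rose and 3 fell with DZNep and 2 fell with Valproate. With Bromosporine and OICR 1 fell each. Of all tested genes 6.14%, 2.55%, 2.77% and 0.26% fell with these 4 compounds, in the same order. Rara, a retinoic acid receptor, fell with DZNep (-1.15 ± 0.11, adjusted p = 1.64e-05) and with Valproate (-1.40 ± 0.11, adjusted p = 1.46e-05). Rarb, a receptor that is itself a target of the pathway, had 138 and 105 in NC and 1 and 18 with DZNep (-4.30 ± 1.44, adjusted p = 0.0452). It was also below both NC libraries, without a call, with Valproate (8 and 9), Bromosporine (11 and 26), UNC0379 (17 and 33) and OICR (6 and 85). Rarg, the third receptor, fell with Valproate to 106 and 305 from 1789 and 1870 (-3.34 ± 0.82, adjusted p = 0.02). Without a call, it lay above both NC libraries with DZNep (2383 and 3721). It lay below both with Bromosporine (345 and 1334) and UNC0379 (551 and 1397), also without a call. Crabp1, which binds retinoic acid in the cytoplasm, fell with DZNep (-1.98), Bromosporine (-1.19) and OICR (-1.13). In this list 10 of 15 genes were higher in number 2 than in number 1 in at least 9 of 10 compounds, against 25.6% of all tested genes. The measure is the same as for the Hox genes above. Stra8, a gene induced by retinoic acid, ranged from 36 to 1472 in number 1 and from 109 to 4562 in number 2, and was higher in number 2 in all 10 compounds.

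Halr1, a noncoding RNA at cluster A and the only 1 of 11 listed noncoding RNAs of the clusters in the table, was not called with any compound. It had 134 and 100 in NC, 12 and 45 with DZNep, and 8 and 30 with Valproate. Its libraries of number 2 exceeded those of number 1 in all 10 compounds.

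Polycomb genes, whose complexes repress the Hox clusters, were counted too. Of 14 tested genes of Polycomb repressive complex 2, Phf19, an accessory subunit, fell with DZNep (30 and 51 against 347 and 320, -3.06 ± 0.25, adjusted p = 6.25e-06), Valproate (-2.08), Bromosporine (-1.57) and OICR (-1.68). Jarid2, a subunit that helps recruit the complex, rose with DZNep (1.03 ± 0.16, adjusted p = 0.00051). The core subunits Ezh2, Eed and Suz12 were not called with any compound, and Ezh2, the methyltransferase, had 6912 and 8923 with DZNep against 9031 and 11077 in NC. Of 20 tested genes of Polycomb repressive complex 1, 1 was called, Phc1, which fell with Valproate (-1.26 ± 0.15, adjusted p = 0.00023). Of 12 trithorax and MLL genes, which keep Hox genes active, 0 were called with any of the 10 compounds. Over all tested genes 11.4% were called in either direction with DZNep, 5.28% with Valproate, 3.34% with Bromosporine and 0.388% with OICR.

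Of 9 tested cofactors that bind DNA together with Hox proteins, Pknox2 rose with DZNep (1.24 ± 0.19, adjusted p = 0.000526) and fell with Valproate (-1.08 ± 0.19, adjusted p = 0.00331), and Pbx2 fell with Valproate (-1.16 ± 0.14, adjusted p = 0.00023). Of 22 tested genes that flank the clusters, 3 rose with DZNep (Snx11 by 1.04, Ttll6 by 1.43 and Nfe2 by 2.14) and 1 fell with Valproate (Cbx5, -1.18). Over all tested genes 5.27% rose with DZNep and 2.55% fell with Valproate, and the difference between flanking genes and Hox genes was not tested.

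Markers of stem cells and other cell types were counted beside these results. Of 10 stem cell markers, Zfp42 and Tbx3 rose with DZNep and 0 were called with Valproate. Of 7 tested fibroblast markers, Col1a1 rose with DZNep and fell with Bromosporine, Thy1 rose with DZNep and Valproate, and Lum, listed at 0 in NC, had 197 and 331 with Valproate. Of 7 primitive endoderm markers, Gata4 fell and Dab2 rose with DZNep, and Pdgfra rose with DZNep and Valproate. Of 7 trophoblast markers, Eomes rose with DZNep and Bromosporine, Ascl2 and Gata3 rose with DZNep, and Hand1, at 9 and 4 in NC, was listed at 0 with Bromosporine. Of 5 tested neural markers, Sox1 fell with DZNep, MS023 and Valproate, Foxd3 rose with Bromosporine, DZNep and OICR, and Map2 rose with Valproate. Of 3 tested mesoderm markers 0 were called with any compound. The share of all tested genes called in either direction was 11.4% with DZNep, 5.28% with Valproate and 3.34% with Bromosporine. It was 0.973% with MS023 and 0.388% with OICR. The summed values were 5170 to 16068 for primitive endoderm, 2924 to 5931 for trophoblast and 1946 to 8030 for neural markers, with NC at 7378 to 11268, 2924 to 3655 and 2619 to 4221. The part of such cells in the Hox values was not tested, and in bulk RNA fewer cells of a type and less RNA per cell cannot be told apart.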

How the data were processed

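RNA of E14 cells was measured in 22 libraries. According to the study's methods, which do not mention the compounds, the authors counted reads per gene with RSEM on Ensembl transcripts and normalized them with EDASeq. Processing notes name Bowtie2 2.2.5 and mm10. The deposited values are scores, normalized counts rounded to whole numbers and brought to one distribution, which hides depth and any change shared by most genes. The other deposited table gave group means by the authors, differed from means of the first by at most 0 and was not used.

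After taking log2(value + 1) and keeping genes with at least 10 in at least 2 libraries, limma 3.58.1 (under R 4.3.3) was used, and 11 group means were fitted to all libraries (11 residual degrees of freedom, moderated variances with a trend). P-values are two-sided and Benjamini-Hochberg adjusted within each contrast. The counts needed for a count test were not given. Positions and exon lengths came from GENCODE M21, promoters from RefSeq.

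The Hox genes and all gene lists were chosen with earlier results of these data known. Of the 20 genes found, 1 stayed in the fit but is not reported here. Printed by library are genes called against NC, the pair with the highest mean value in each cluster, and for each compound the non-overlapping gene with the largest change. Hoxb13 and Hoxc11 were described after their values were seen. Of the other lists, called genes are named, and further list genes were chosen after their values were seen.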

Additional observations from a re-analysis of the deposited data

How the results depend on the processing

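The number of Hox genes called was recomputed with 10 added before logs in place of 1, without a filter, after rescaling by median ratios, with a replicate block, other references and adjustments, in fits of only the libraries compared, and in fits without single libraries. Of these counts 125 stayed within 1.5 times the first count and 21 did not. Most of the counts that stayed were 0 both times, with the 8 compounds that had no Hox call. The tally therefore says little about how stable the calls with DZNep and Valproate were. With the mean of the other 10 groups in place of NC, 5 genes were called with Valproate (3 with NC), 1 with Bromosporine (Hoxc11) and 1 with MS023 (Hoxb13), where NC gave 0 for both. Of all tested genes 7.73%, 5.15% and 2.6% were called with that reference, in the same order. Fits of only the libraries compared, with 4 libraries each, gave 0 calls for DZNep, 0 for Valproate, and 0 in each of the 4 direct comparisons. Of all tested genes such fits called 0.562%, 0.434% and, over the direct comparisons, 0% to 2.77%. Leaving out single libraries gave 1 to 3 calls with DZNep (4 with all libraries), 0 to 3 with Valproate, 3 to 6 for DZNep against Valproate, 2 to 4 for DZNep against Bromosporine and 1 to 3 for Bromosporine against Valproate. A lone library left in a group was assumed to vary like the other groups.

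With the replicate number as a block the counts were 5 for Valproate, 1 for Bromosporine (Hoxc11) and 5 for Bromosporine against Valproate. Of all tested genes 8.61%, 6.88% and 12.6% were called in that fit, in the same order. The block added to the Valproate calls Hoxa3, which fell, and Hoxb13, which rose by 1.64 with adjusted p = 0.0339. The other block counts stayed within 1.5 times. The correlation over genes of the difference between numbers 2 and 1 was 0.0535 to 0.298 over all 55 pairs of groups, and 0.0836 to 0.183 between NC and a compound. These are all above 0. Of all tested genes 14.2% were higher and 9.76% lower in number 2 in all 10 compounds. The labels do not say what libraries with the same number share. The main fit did not use the number, so differences by number enter its SE. For Hoxc12 the SE against NC was 0.377 in the main fit and 0.131 with the block.

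Of single-gene changes under the alternatives, 311 kept their direction and their call or lack of one, 62 lost and 12 gained a call by the p or the size required, and 2 reversed, Hoxa9 with CPTH2 (0.148) and with OICR (0.0398), both with that mean as the reference and neither called. Apart from rescaling, whose shift of all genes was at most 0.0465, the cause of these shifts was not tested. Depth is not known, so values of a few counts, as in Hoxa9, Hoxb3, Hoxd1 and Hoxd10, carry no stated counting error.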
